A study of Mus musculus with 12 samples.

Results

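Mitochondrial complex I subunits were followed in mouse liver through the genes that encode them. A gene was included when its symbol in the array annotation starts with Ndufa, Ndufb, Ndufc, Ndufs or Ndufv. Assembly factors, whose symbols start with Ndufaf, were left out. A probe set had to name a single gene, and of several such sets the brightest on average stood for its gene. This gave 36 members among the 19938 genes measured. The annotation holds 39 symbols of this family. Ndufb4, Ndufb4b and Ndufs5-ps lie on probe sets shared by several genes, and Ndufb1 was not analysed here.

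The 12 arrays measured liver RNA of 129Sv mice at 12 weeks of age, all fasted for 24 h, in a study of how diet and SIRT3 act on liver expression. Controls were SIRT3WT, and SIRT3KO mice lack SIRT3, a protein deacetylase of the mitochondrion. Each genotype was given either the standard diet or, from weaning, a Western diet holding 42% fat, called high-fat here. Each of the 4 groups has 3 arrays, and nothing in the labels describes the knockout allele, the sex of the mice or whether each array holds a different mouse. The p-values therefore measure the spread between these arrays. Whole liver was used, so fewer cells of a type and less RNA per cell cannot be told apart.

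Complex I is the entry point of the respiratory chain: it oxidises NADH, passes the electrons over a flavin and iron-sulfur clusters to ubiquinone, and pumps protons out of the matrix. Its peripheral arm stands in the matrix and carries the redox groups, and its membrane arm holds the pumps. Core subunits do the catalysis, and accessory subunits surround them and are needed for assembly and stability. The pump subunits themselves are encoded in mitochondrial DNA and are not among the members. In liver, complex I takes up the NADH of fatty acid oxidation, and SIRT3 deacetylates several of its subunits, which is a change of protein that an RNA measurement does not read.

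The values are log2 levels, so a difference of -1 is a halving. A member was called when limma's moderated test, with Benjamini-Hochberg adjustment across the 19938 genes, gave an adjusted p under 0.05. Array medians lay between 6.34 and 6.47. The number of arrays limits the precision: the median SE of a member's difference was 0.102 within a diet or genotype, 0.0722 for the mean diet difference and 0.144 for the interaction. Exactly equal values between arrays pointed to separate normalization by diet. Pairs of arrays of different diets shared between 0 and 1 equal values, pairs within the standard diet between 11 and 31, and pairs within the high-fat diet between 2 and 15. Genotype comparisons thus lie within a normalization run, and in a diet comparison a shift between runs and the diet cannot be told apart.

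Sirt3, the targeted gene, had levels of 8.97, 9.04 and 9.13 in the wild type and 8.83, 8.94 and 8.95 in the knockout on the standard diet. Its high-fat levels were 9.29, 9.14 and 9.13 in the wild type and 8.92, 8.49 and 8.87 in the knockout. Knockout arrays lay below wild-type arrays within each diet, without a call. The difference was -0.14 (SE 0.108, adjusted p = 0.66) on the standard diet and -0.42 (SE 0.108, adjusted p = 1) on the high-fat diet. Whether its probes lie in the deleted part is not stated in the sources used here, so this signal does not check the genotype labels. Hepatocyte markers defined the tissue on every array, with a mean level over the 9 genes between 13.14 and 13.33. Knockout standard-diet replicate 1 stood apart in acute-phase genes, with a mean level of 11.77 over 6 genes against 7.90 to 8.02 on the other arrays of its group. Knockout standard-diet replicate 2 stood apart in muscle and fat markers, with a mean of 7.31 over 5 genes against 6.07 to 6.17.

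Members lay mostly lower on the high-fat diet, in both genotypes. Of 36 members, 32 were below 0 in the mean diet difference of both genotypes, and 6 fell by the test. No member rose. Over all genes 46.5% were below 0. The 6 are 16.7% of the members, against 18.0% of all genes called in either direction and 7.69% called lower. The share of calls in either direction is thus near the background, while the direction was uneven: 15 members had an unadjusted p under 0.05 and were lower, 41.7% of members against 14.3% of all genes. The median difference of the members was -0.14, against 0.01 for all genes. Of the 5172 genes with a mean level of 8 or more, 51.3% were below 0 and 10.9% were called lower, with a median of -0.01. Among all genes 2049 rose and 1533 fell as deposited, and 1464 rose and 2124 fell after median centring of each array.

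**Figure D1:**
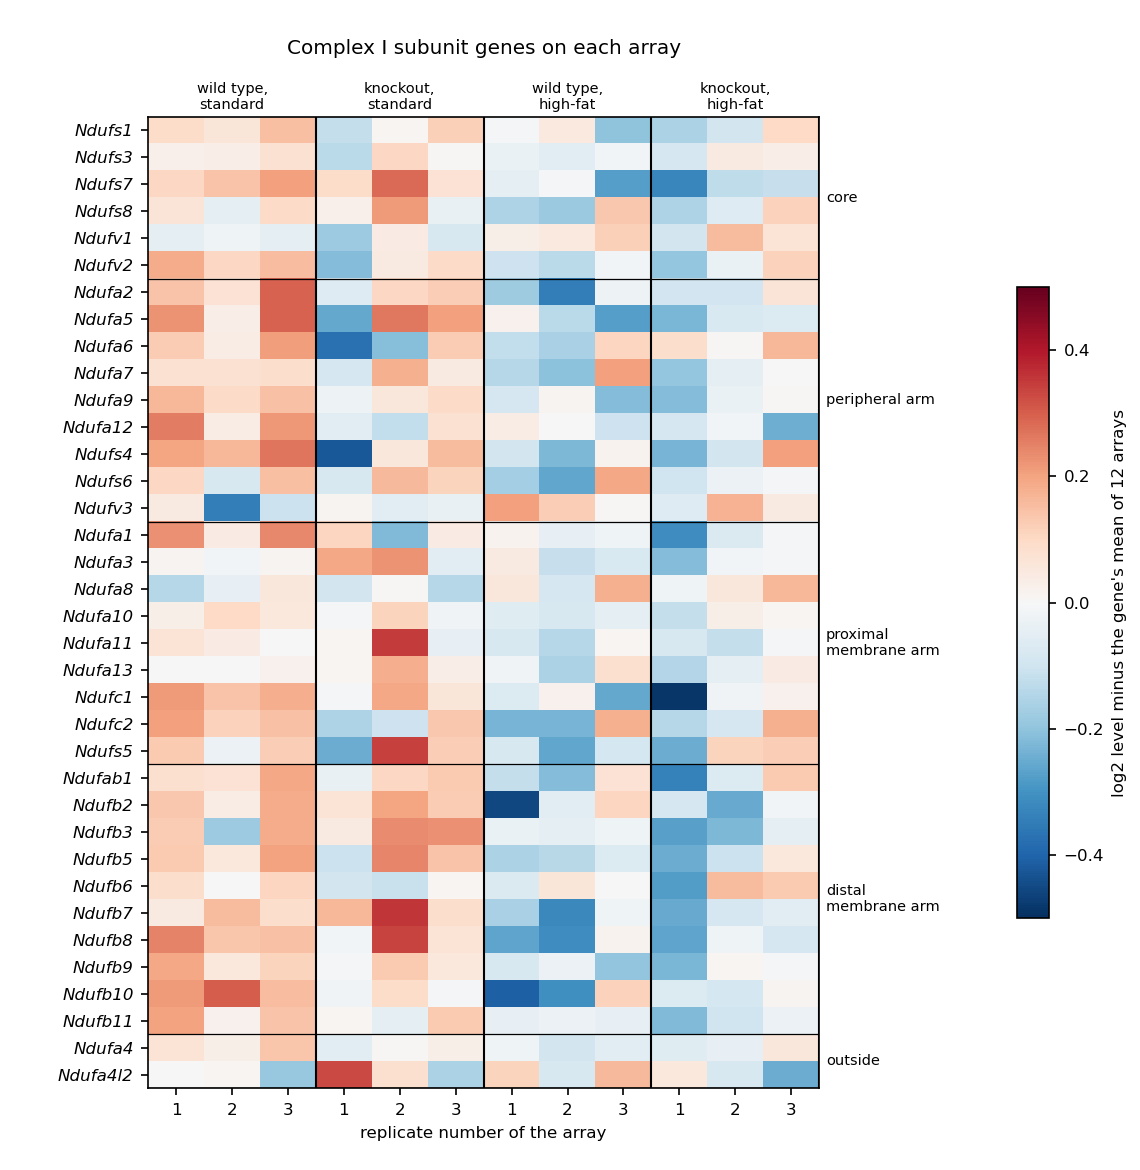
Log2 level of each of 36 members on each of 12 arrays, minus the gene's mean over the arrays, with rows grouped by place in the enzyme and columns by group and replicate number. Red is higher and blue is lower. Most standard-diet columns are mostly red and most high-fat columns mostly blue, with replicate 1 of the high-fat knockout the bluest (median -0.18). Exceptions are standard-diet knockout replicate 1, with 24 of 36 members below their own mean, and high-fat knockout replicate 3, with 15. Wild-type high-fat replicate 3 is about even, with 19.

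Single arrays carried the pattern unevenly. The median deviation of the 36 members from their own 12-array means was 0.11, 0.04 and 0.14 on the wild-type standard-diet arrays and -0.03, 0.10 and 0.07 on the knockout standard-diet arrays. It was -0.07, -0.11 and -0.01 on the wild-type high-fat arrays and -0.18, -0.04 and 0.02 on the knockout high-fat arrays. Wild-type arrays of both diets did not overlap, and knockout arrays did. High-fat knockout replicate 1 was the lowest of its group for 29 of 36 members and replicate 3 the highest for 27. Most members thus moved together from array to array inside that group. Genes with a mean level of 8 or more followed the same order in that group, with median deviations of -0.11 on replicate 1 and 0.06 on replicate 3. Knockout standard-diet replicate 1, the acute-phase array, was the lowest of its group for 23 members, and replicate 2, the array with muscle and fat markers, was the highest for 21.

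Ndufs7, Ndufb7 and Ndufb8 fell with the most support. Ndufs7 is a core subunit, the iron-sulfur protein that hands electrons to ubiquinone. Its levels were 11.04, 11.08 and 11.14 in the wild type and 11.03, 11.22 and 11.01 in the knockout on the standard diet, and 10.89, 10.93 and 10.66 in the wild type and 10.61, 10.81 and 10.82 in the knockout on the high-fat diet. Each of the 6 high-fat arrays lay below each of the 6 standard-diet arrays. The mean diet difference was -0.30 (SE 0.0668, limma adjusted p = 0.00782), a 1.23-fold lower level, and it was -0.26 in the wild type and -0.34 in the knockout.

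Ndufb7 is an accessory subunit of the distal membrane arm that faces the intermembrane space. Its levels were 9.68, 9.79 and 9.72 in the wild type and 9.80, 9.99 and 9.72 in the knockout on the standard diet, and 9.47, 9.31 and 9.61 in the wild type and 9.38, 9.55 and 9.58 in the knockout on the high-fat diet. Here too each high-fat array lay below each standard-diet array. The mean diet difference was -0.30 (SE 0.0698, limma adjusted p = 0.00934), with -0.27 in the wild type and -0.33 in the knockout. Ndufb7 and Ndufs7 were the 2 members, 5.56% of 36, whose diets were apart and lower over all 12 arrays. This compares with 3.85% of all genes and 5.53% of genes with a mean level of 8 or more, so it is near the background.

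Ndufb8 lies in the same arm and is a usual antibody target for assembled complex I on blots. Its levels were 8.86, 8.75 and 8.76 in the wild type and 8.60, 8.95 and 8.68 in the knockout on the standard diet, and 8.35, 8.30 and 8.63 in the wild type and 8.35, 8.59 and 8.53 in the knockout on the high-fat diet. High-fat arrays were lower, and 5 of 6 lay below the lowest standard-diet array. The mean diet difference was -0.31 (SE 0.0799, limma adjusted p = 0.0171).

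Calls of Ndufc1, Ndufa2 and Ndufb5 were close to the threshold. Ndufc1, a small protein of the proximal membrane arm, had 10.09, 10.02 and 10.06 in the wild type and 9.87, 10.07 and 9.94 in the knockout on the standard diet. Its high-fat levels were 9.81, 9.90 and 9.62 in the wild type and 9.39, 9.86 and 9.90 in the knockout. The groups of the knockout overlapped and those of the wild type did not. Its mean diet difference was -0.26 (SE 0.0866, limma adjusted p = 0.0498), and a second probe set of the gene gave -0.12 (adjusted p = 0.241).

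Ndufa2, an accessory subunit of the peripheral arm with a thioredoxin-like fold, had 8.64, 8.57 and 8.79 in the wild type and 8.43, 8.60 and 8.62 in the knockout on the standard diet. Its high-fat levels were 8.32, 8.15 and 8.47 in the wild type and 8.40, 8.40 and 8.56 in the knockout. High-fat arrays were lower in the wild type without overlap, and the knockout groups overlapped. The mean diet difference was -0.23 (SE 0.0718, limma adjusted p = 0.0407).

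Ndufb5, of the distal membrane arm, had 10.46, 10.38 and 10.53 in the wild type and 10.22, 10.57 and 10.47 in the knockout on the standard diet. Its high-fat levels were 10.17, 10.19 and 10.26 in the wild type and 10.08, 10.22 and 10.38 in the knockout. Knockout standard-diet replicate 1 was the low array of its group. The mean diet difference was -0.23 (SE 0.0712, limma adjusted p = 0.0406).

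**Figure D2:**
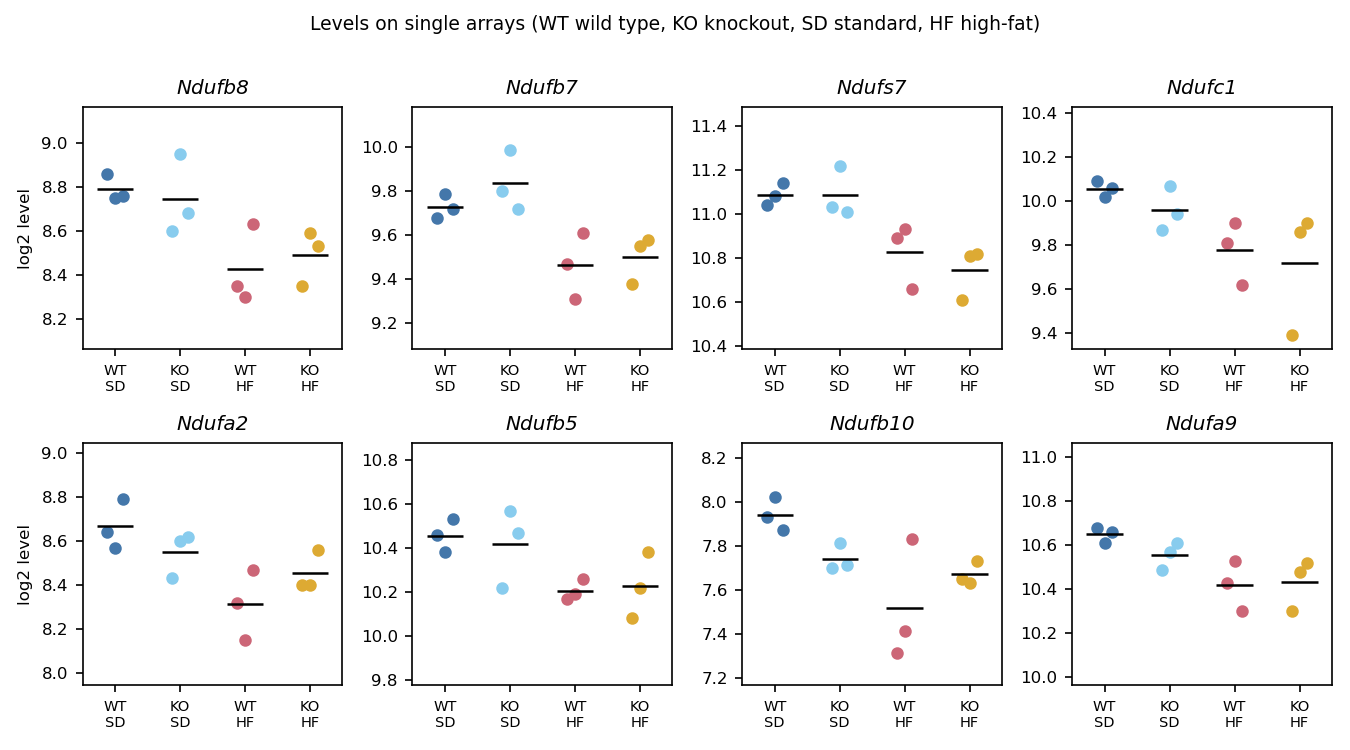
Log2 level on each array for the 6 members called lower on the high-fat diet, for Ndufb10 and for Ndufa9; points are single arrays, bars are means of 3 arrays, and every panel spans the same number of log2 units. High-fat arrays sit below standard-diet arrays in both genotypes for Ndufs7 and Ndufb7, and Ndufb10 differs mainly in the wild type (7.94 against 7.52).

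How firm the calls were differed between members. At the threshold of 0.05, Ndufs7, Ndufb7 and Ndufb8 were called in 23 of 24 alternative analyses and after leaving out any of the 12 arrays. At an adjusted p under 0.01, Ndufs7 and Ndufb7 kept their calls and Ndufb8 did not. Ndufa2 lost its call on leaving out any of 8 arrays, Ndufb5 on any of 9 and Ndufc1 on any of 9. The count of 6 fell to 3 without wild-type standard-diet replicate 1 or 3, knockout standard-diet replicate 2 or 3, wild-type high-fat replicate 1, or knockout high-fat replicate 1. In those fits 13.5% to 17.6% of all genes were called, against 18.0% in the reported fit. A variance for the shift between the normalization runs was also added, with an SD of 0.214 taken from 1231 chemosensory receptor genes. No member then kept a call, and 0.0451% of all genes were called in the mean diet difference. The lack of called members is thus near the background. Those receptor genes are dimmer than most, with a median level of 4.23 against 6.70.

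The promoters of the 3 best supported members are shown because these genes fell with the most support. They did not follow each other on every array. Among the wild-type high-fat arrays Ndufs7 was lowest on replicate 3 (10.66), while Ndufb7 (9.61) and Ndufb8 (8.63) were highest there. Each line gives 150 bases upstream of the RefSeq transcription start in GRCm38.p6, read in the direction of the gene. Capitals mark matches to the letters TATAAA of a TATA box or CCGGAAG, which are bound by GABP, a factor known for respiratory genes. They are matches of letters alone, and whether either is a working site was not tested. Ndufs7 is at chr10:80249299-80249448 on the plus strand, Ndufb7 at chr8:83566608-83566757 on the plus strand and Ndufb8 at chr19:44555443-44555592 on the minus strand.
Ndufs7: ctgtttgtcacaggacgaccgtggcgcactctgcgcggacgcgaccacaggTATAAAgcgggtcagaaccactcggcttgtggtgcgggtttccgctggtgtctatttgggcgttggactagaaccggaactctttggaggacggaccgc
Ndufb7: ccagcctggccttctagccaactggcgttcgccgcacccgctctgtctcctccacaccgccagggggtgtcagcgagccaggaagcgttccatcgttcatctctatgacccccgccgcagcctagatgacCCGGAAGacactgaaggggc
Ndufb8: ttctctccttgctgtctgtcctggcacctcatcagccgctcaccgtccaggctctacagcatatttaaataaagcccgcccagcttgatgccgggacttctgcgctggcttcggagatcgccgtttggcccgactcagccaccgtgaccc

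Promoter letters were counted over 34 RefSeq windows of 32 members, each 300 bases long with 250 before and 50 after the start, and over the 19177 windows of analysed genes. Both strands were searched. The GABP letters CCGGAAG were in 4 windows, 11.8% of member windows against 12.1% of all gene windows. The palindromic NRF1 site was in 1 window (2.94% against 1.45%), and its inner part CGCATGCG, which every match of the longer form contains, was in 2 (5.88% against 2.69%). The letters TCAAGGTCA of an ERR half-site were in 0 windows (0.297% of gene windows), TATAAA in 5 (14.7% against 11.5%) and CCAAT in 9 (26.5% against 37.4%). Ndufa2, Ndufa4l2, Ndufb9 and Ndufs1 had no window.

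The letters AAGATGG, the core bound by YY1, were in 7 member windows, 20.6% against 6.25% of gene windows. Each of the 7 matches reads in the direction of the gene and begins 23 to 39 bases after the start. Over all gene windows, 322 matches in that direction began within the 50 bases after the start, 1.68% of the number of windows, a side looked at after the member matches were seen. The letters contain ATG and a G behind it, as the surroundings of a translation start codon often do, and whether these matches are start codons was not tested. They are shown because they share this place: each line gives up to 10 bases on either side, with the match in capitals.
Ndufc1: cctgcggaacAAGATGGcgccgtccgt
Ndufa9: attgtgggagAAGATGGcggccgccgt
Ndufa3: cgccaagaacAAGATGGccgggagtaa
Ndufs7: ggccgaggccAAGATGGcggcgctggc
Ndufs6: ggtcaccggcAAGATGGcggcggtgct
Ndufs4: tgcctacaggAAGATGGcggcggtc
Ndufb8: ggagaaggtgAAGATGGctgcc
They lie at chr3:51408917-51408943 (Ndufc1, minus strand), chr6:126849099-126849125 (Ndufa9, minus), chr7:3617385-3617411 (Ndufa3, plus), chr10:80249463-80249489 (Ndufs7, plus), chr13:73328433-73328459 (Ndufs6, minus), chr13:114388045-114388069 (Ndufs4, minus) and chr19:44555393-44555414 (Ndufb8, minus). In the mean diet difference the 7 genes ranged from -0.31 to -0.12 with a median of -0.18, and 3 were called. The other 25 members with a window ranged from -0.30 to 0.16 with a median of -0.13, and 2 were called. This set was formed after its values were known and has no test.

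By place in the enzyme, the distal membrane arm had the lowest median diet difference. All 10 measured of its 12 listed subunits were below 0, 3 fell by the test (Ndufb5, Ndufb7 and Ndufb8), and the median was -0.22. Its remaining measured members are Ndufab1, the mitochondrial acyl carrier protein, and Ndufb2, Ndufb3, Ndufb6, Ndufb9, Ndufb10 and Ndufb11. Of 9 subunits of the proximal membrane arm, 8 were below 0 and Ndufc1 fell, with a median of -0.13. Of 9 accessory subunits of the peripheral arm, 7 were below 0 and Ndufa2 fell, with a median of -0.14. Of the 6 core subunits measured, 5 were below 0 and Ndufs7 fell, with a median of -0.10. Of all genes, 46.5% were below 0 and 7.69% were called lower in this comparison. Among genes with a mean level of 8 or more the shares were 51.3% and 10.9%. Ndufc1, Ndufa2 and Ndufs7 were each the only call of their group, so these calls are not read as results about the groups. Differences between these groups of subunits were not tested.

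Some members did not lie lower. Ndufv1, the core subunit that binds the flavin and takes the electrons from NADH, had 10.35, 10.38 and 10.35 in the wild type on the standard diet and 10.43, 10.45 and 10.52 on the high-fat diet. In the knockout it had 10.22, 10.44 and 10.32 on the standard diet and 10.31, 10.56 and 10.47 on the high-fat diet. Its wild-type groups were apart and higher on the high-fat diet, with a difference of 0.11 in the wild type and 0.12 in the knockout and no call. Its iron-sulfur partner Ndufv2 had differences of -0.23 in the wild type and -0.01 in the knockout. Ndufa8, of the proximal membrane arm, and Ndufv3, at the tip of the peripheral arm, were also above 0 in both genotypes, without a call. Ndufa4, now assigned to complex IV, and Ndufa4l2, its relative known as a target of hypoxia, had mean diet differences between -0.07 and -0.03. Mean levels over the 12 arrays ran from 6.38 for Ndufa4l2 to 12.29 for Ndufa4, and probe sets differ in response, so these are not compared as abundance.

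In the wild type the diet difference was below 0 for 32 members, 88.9% against 41.8% of all genes, with a median of -0.18 against 0.04. Groups were apart and lower for 21 members, 58.3% against 10.9% of all genes and 17.8% of genes with a mean level of 8 or more, and apart and higher for 1, Ndufv1, 2.78% against 19.4%. An unadjusted p under 0.05 was found for 14 members, 38.9% against 22.6% of all genes. By limma's test 1 member fell, Ndufb10, 2.78% of members against 1.69% of all genes called lower and 5.99% called in either direction. Ndufb10, an accessory subunit of the distal membrane arm, had 7.93, 8.02 and 7.87 on the standard diet and 7.31, 7.41 and 7.83 on the high-fat diet. High-fat replicate 3 stood near the standard-diet arrays and the other arrays of its group well below. The difference was -0.42 (SE 0.116, limma adjusted p = 0.0461), and the call was lost in 15 of 25 alternative analyses, 10 of them the omission of 1 array. It was kept on leaving out wild-type high-fat replicate 3 or knockout standard-diet replicate 3, and lost without any other array. Without wild-type high-fat replicate 3, 3 members and 4.2% of all genes were called. Ndufa2 (-0.36, limma adjusted p = 0.052) and Ndufb8 (-0.36, limma adjusted p = 0.0737) followed.

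In the knockout the diet difference was below 0 for 28 members, 77.8% against 52.3% of all genes, with a median of -0.11 against -0.01. No member was called by limma, against 5.11% of all genes, and 5 had an unadjusted p under 0.05, 13.9% against 21.6% of all genes. Groups were apart and lower for 5 members (Ndufb2, Ndufb3, Ndufb7, Ndufb8 and Ndufs7), 13.9% against 13.2% of all genes, which is near the background. Ndufb3, of the distal membrane arm, had 7.77, 7.96 and 7.95 on the standard diet and 7.45, 7.50 and 7.68 on the high-fat diet. The standard-diet arrays were all higher. Its difference was -0.35 (SE 0.107, limma adjusted p = 0.0738), beside -0.08 in the wild type. Ndufs7 (-0.34, limma adjusted p = 0.0542) and Ndufb7 (-0.33, limma adjusted p = 0.0642) had the smallest p. Without wild-type high-fat replicate 3, 2 members were called lower, and without knockout standard-diet replicate 3, 1 was called lower and 1 higher. Of all genes 5.6% and 6.45% were called in those fits.

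**Figure D3:**
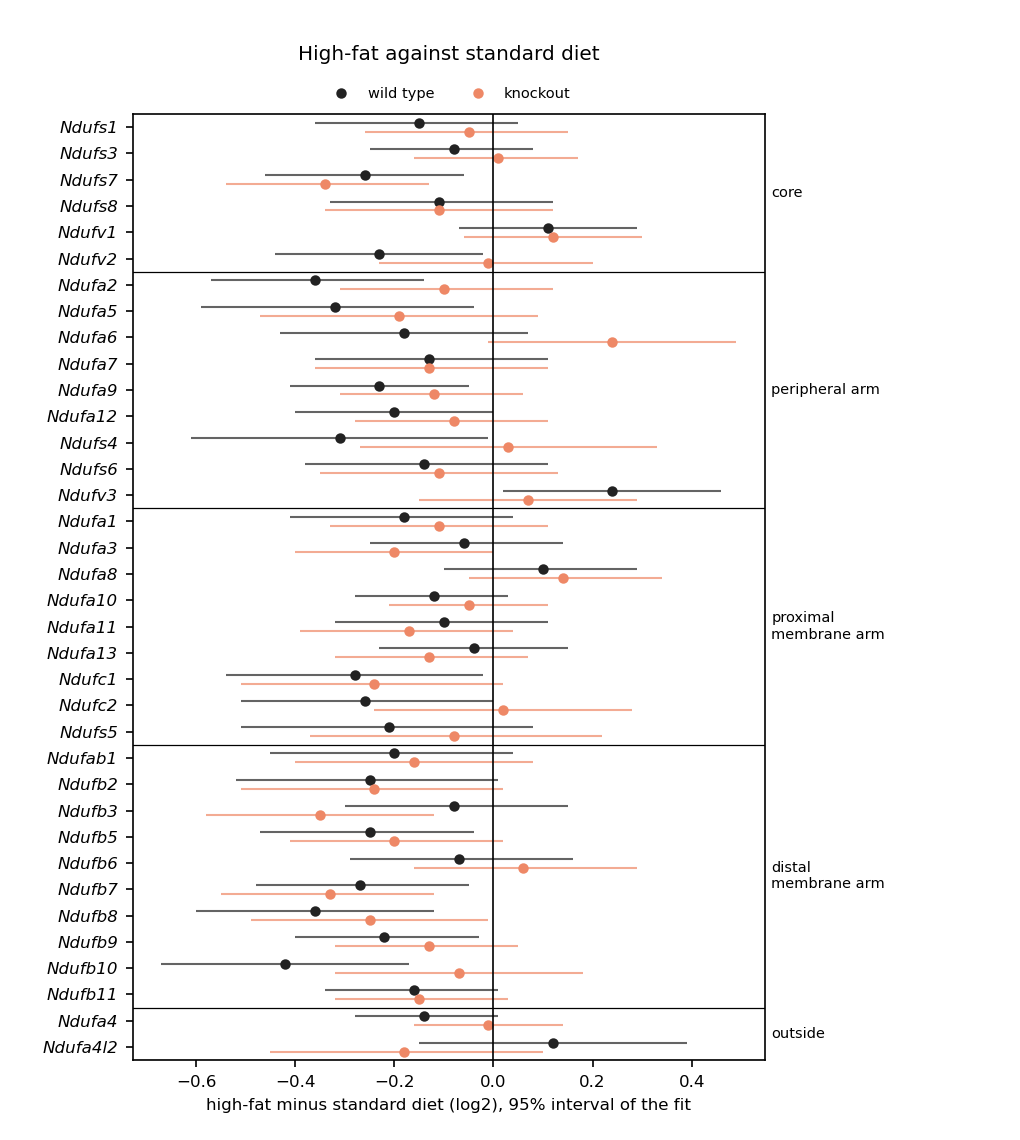
High-fat minus standard diet (log2) for each of 36 members in the wild type and in the knockout, points with 95% intervals of the limma fit, grouped by place in the enzyme. Points lie left of 0 for 32 members in the wild type and 28 in the knockout, and the intervals of both genotypes overlap for all 36 members.

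Of the 36 members, 27 were below 0 in both genotypes, 75% against 32.3% of all genes. Another 5 were below 0 in the wild type alone, 1 was above 0 in the wild type alone (Ndufa4l2), and 3 were above 0 in both. For 26 members the knockout difference was the higher of both, with a median interaction of 0.07. The interaction, which asks whether the diet difference depends on genotype, called 0 members by limma, as it called 0% of all genes, and 2 members had an unadjusted p under 0.05, 5.56% against 4.73%. The interaction was below 0 for 10 members, 27.8% against 61.6% of all genes and 43.5% of genes with a mean level of 8 or more. Its median was -0.05 over all genes and 0.02 over those brighter genes, which thus leaned the same way as the members. Ndufa6, a peripheral-arm subunit of the LYR family, had an interaction of 0.42 (SE 0.166, limma adjusted p = 0.945). Its levels were 9.53, 9.44 and 9.61 in the wild type and 9.03, 9.19 and 9.53 in the knockout on the standard diet, then 9.28, 9.24 and 9.51 in the wild type and 9.49, 9.41 and 9.57 in the knockout on the high-fat diet. The knockout was spread widely on the standard diet, with acute-phase replicate 1 the lowest of the 12 arrays. Ndufb10 had an interaction of 0.35 (SE 0.164, limma adjusted p = 0.945).

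Genotype made no called difference in any member. On the standard diet 0 of 36 members were called by limma, against 0.00502% of all genes, and 2 had an unadjusted p under 0.05, 5.56% against 9.73%. Differences of knockout minus wild type lay between -0.28 and 0.14, with a median of -0.05 against 0.04 for all genes, and 26 members were below 0, 72.2% against 39.8% of all genes. Groups were apart and lower for 4 members (Ndufa4, Ndufb10, Ndufs4 and Ndufv2), 11.1% against 4.52% of all genes. These shares were near those of the genes with a mean level of 8 or more, of which 65.5% were below 0 and 10.1% apart and lower, with a median of -0.05. The members' median moved to 0.0044 without knockout standard-diet replicate 1, to -0.0153 under quantile normalization and to -0.0049 under cyclic loess. The part of the acute-phase signal of that array in these values was not tested.

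Ndufs4, a peripheral-arm subunit whose loss causes Leigh syndrome, had 10.09, 10.06 and 10.16 in the wild type and 9.47, 9.95 and 10.05 in the knockout on the standard diet. Replicate 1 of the knockout was far below the other arrays. Its difference was -0.28 (95% interval -0.58 to 0.01, limma adjusted p = 0.53). Ndufa6 differed by -0.28 (interval -0.53 to -0.02, limma adjusted p = 0.503). Ndufa12, a peripheral-arm subunit related to the assembly factor Ndufaf2, differed by -0.21 (interval -0.40 to -0.01, limma adjusted p = 0.503).

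On the high-fat diet 0 of 36 members were called, as 0% of all genes were, and 0 had an unadjusted p under 0.05 by limma, against 2.86% of all genes. No member had groups apart, against 6.68% of all genes. Differences lay between -0.16 and 0.15 with a median of 0.01, and 14 members were below 0, 38.9% against 56.9% of all genes. The largest in size among those with the smallest p were Ndufb10 at 0.15 (interval -0.10 to 0.40), Ndufb3 at -0.14 (interval -0.37 to 0.08) and Ndufa2 at 0.14 (interval -0.08 to 0.36), each with an adjusted p of 1. The intervals leave room for a change of up to 0.40 in Ndufb10.

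**Figure D4:**
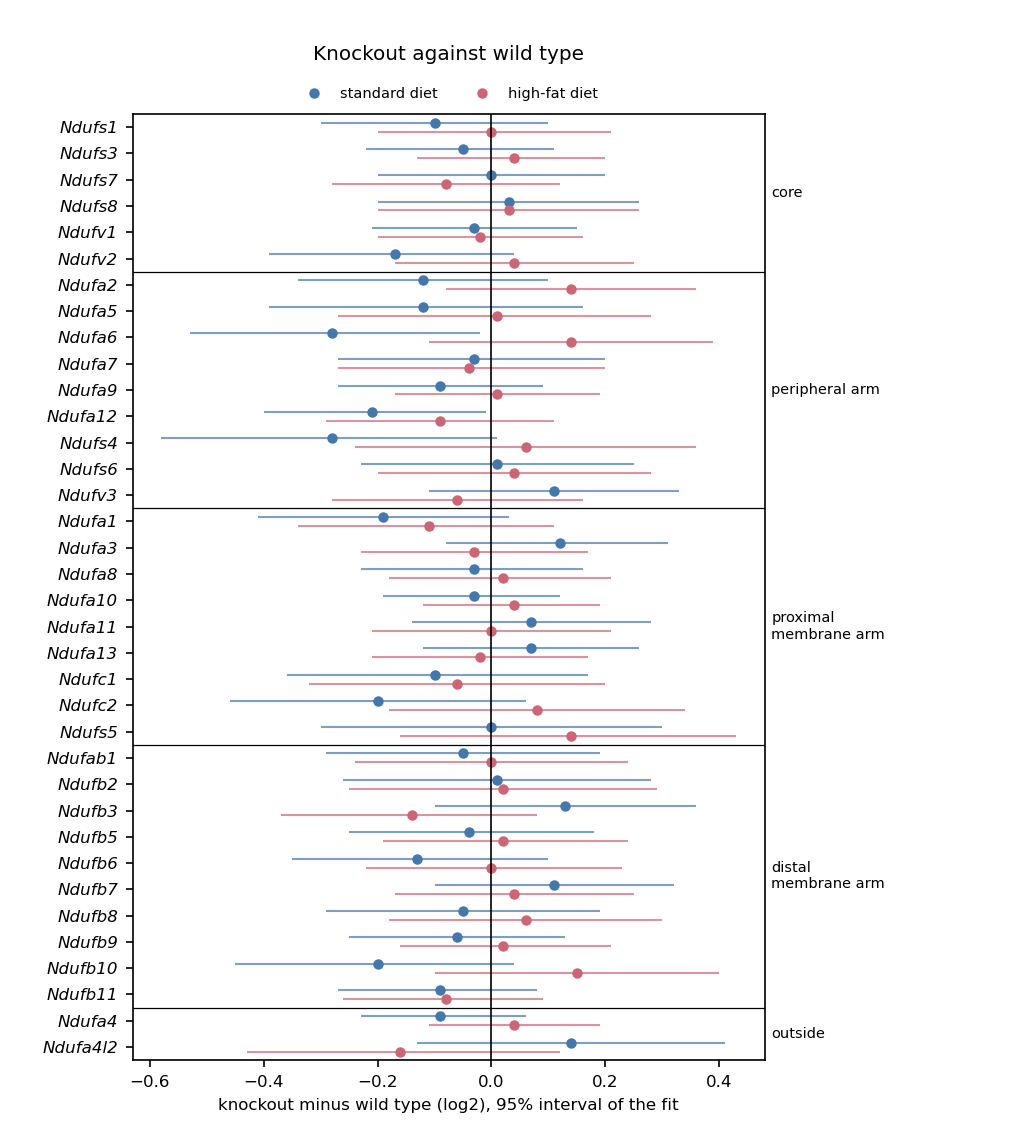
Knockout minus wild type (log2) for each of 36 members on the standard and on the high-fat diet, points with 95% intervals of the limma fit, grouped by place in the enzyme. Standard-diet points lie below 0 for 26 members and high-fat points for 14, and most intervals include 0.

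Ndufa9, a peripheral-arm subunit near the ubiquinone site known as a partner of SIRT3, was followed by name. Its levels were 10.68, 10.61 and 10.66 in the wild type and 10.49, 10.57 and 10.61 in the knockout on the standard diet, and 10.43, 10.53 and 10.30 in the wild type and 10.30, 10.48 and 10.52 in the knockout on the high-fat diet. Genotypes overlapped on the high-fat diet, and on the standard diet the highest knockout array met the lowest wild-type array. The genotype difference was -0.09 (interval -0.27 to 0.09, limma adjusted p = 0.719) on the standard diet and 0.01 (interval -0.17 to 0.19, limma adjusted p = 1) on the high-fat diet. Its mean diet difference was -0.18 (SE 0.0601, limma adjusted p = 0.0544), with no call.

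Other respiratory chain genes are read beside the members in the mean diet difference. Complex III, which takes electrons from ubiquinol, had 9 of 9 subunits below 0, 2 that fell and a median of -0.12; Uqcr10 fell by 0.39 (limma adjusted p = 0.00342) and the Rieske protein gene Uqcrfs1 by 0.20 (limma adjusted p = 0.0413). Complex IV, which reduces oxygen, had 9 of 10 measured subunits below 0, 3 that fell and a median of -0.20; Cox4i1 fell by 0.27 (limma adjusted p = 0.00848) and Cox8a by 0.21 (limma adjusted p = 0.0184). ATP synthase had 14 of 17 measured subunits below 0, 7 that fell and a median of -0.19; Atp5e fell by 0.36 (limma adjusted p = 0.00847) and Atp5o by 0.33 (limma adjusted p = 0.0129). Complex II, which brings in electrons from succinate, had 3 of 4 subunits below 0 and a median of -0.04, and its membrane anchor gene Sdhd fell by 0.23 (limma adjusted p = 0.0105). Over all genes 46.5% were below 0 and 7.69% were called lower, and among genes with a mean level of 8 or more 51.3% and 10.9%. Differences between the complexes, and between them and other genes, were not tested.

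Among genes that build or control complex I, called genes were found in both directions. Of 17 measured assembly factors, 10 were above 0, 2 rose and 1 fell, with a median of 0.05. The 3 calls are 17.6% of the list, near the 18.0% of all genes. Ndufaf3, named after its values were seen, fell by 0.26. Nubpl, which delivers iron-sulfur clusters to complex I, rose by 0.47 (SE 0.118, limma adjusted p = 0.0147). Tmem70, better known from ATP synthase assembly, rose by 0.32 (SE 0.0676, limma adjusted p = 0.00553). Of 13 regulators of nuclear respiratory genes, 9 were above 0 and 2 rose: the coactivator gene Ppargc1b by 0.45 (limma adjusted p = 0.00342) and Yy1 by 0.34 (limma adjusted p = 0.00537). Among 6 other dehydrogenases linked to NADH or quinone, 3 were above 0, and Nnt, the transhydrogenase gene, rose by 0.21 (limma adjusted p = 0.04). Over all genes 10.3% were called higher, so these few calls are not read as results about the lists of regulators and dehydrogenases.

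**Figure D5:**
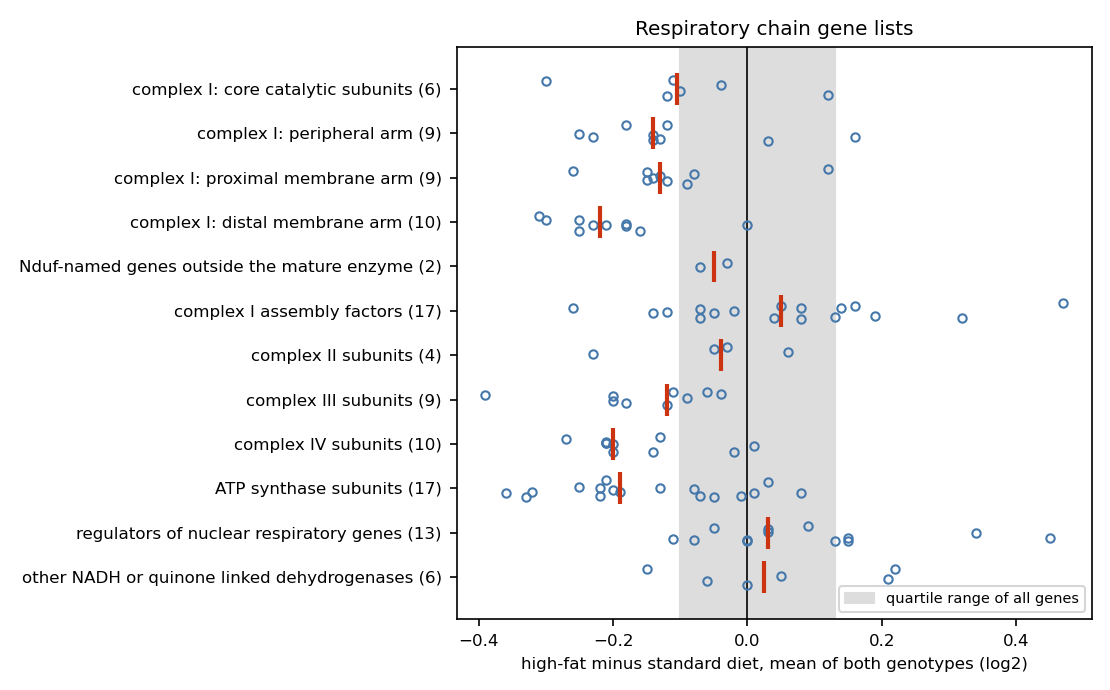
Mean diet difference (high-fat minus standard, log2) of each gene, as circles by list with the number measured in brackets; red bars are list medians and the grey band runs from the lower to the upper quartile of all genes (-0.10 to 0.13). The band is the spread of single genes and no measure for a median; the plotted medians run from -0.22 in the distal membrane arm of complex I to 0.05 in assembly factors.

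Markers of other cells moved with diet too, for lymphocytes mainly in the wild type. Values here are for the mean diet difference unless a genotype is named. In it 10.3% of all genes were called higher and 7.69% lower. Within a genotype 4.30% of all genes were called higher in the wild type and 2.45% in the knockout. Of 5 measured lymphocyte markers 3 rose, with a median of 0.26. In the wild type 3 were called higher (median 0.45), and in the knockout 0 were called (median 0.09). The interaction was below 0 for 5 of 5, with no call. Mean levels were 5.68 to 5.79 on wild-type and 5.86 to 5.98 on knockout standard-diet arrays. They were 5.97 to 6.29 and 5.92 to 6.11 on the high-fat arrays. Ptprc, the leukocyte surface phosphatase gene, rose by 0.41 (limma adjusted p = 0.00768). Of 6 stellate markers 2 rose, with a median of 0.09 (0.19 in the wild type and 0.01 in the knockout). Of 5 endothelial markers 1 rose, Stab2, by 0.40 (limma adjusted p = 0.00212), and it was called in both genotypes (0.39 and 0.41). The endothelial medians were 0.18 in the wild type and -0.02 in the knockout. Of 9 hepatocyte markers 1 fell, Tat, by 0.39 (limma adjusted p = 0.0181), with a list median of -0.05. None of 7 macrophage markers was called by limma in the mean diet difference, and 1 had an unadjusted p under 0.05. Of these 7, 7 were above 0 in the wild type (median 0.15) and 6 below 0 in the knockout (median -0.15), and the interaction was below 0 for 7, with no call. Wild-type high-fat replicate 3 had a mean macrophage level of 8.72 against 8.14 and 8.15 on the other arrays of its group, and was the highest of that group for 22 of the 36 complex I members. Of 4 bile duct markers Sox9 fell by 0.27 (limma adjusted p = 0.0335). The part of these cells in the lower member levels was not tested.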

How the data were processed

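The deposited values are log2 expression levels, with an array to a column; the submitters' processing notes name RMA and Affymetrix Expression Console as the authors' tools, whose versions and options are not given in the sources used here. No normalization was added. Of 35557 probe sets, 21789 had 1 gene symbol, 1621 several and 12147 none in the table used, and 21698 of the first matched RefSeq by Entrez ID. The highest-mean set per gene left 19938 genes.

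A model of 1 mean per group over 12 arrays was fitted with limma 3.58.1 in R 4.3.3 (intensity trend, Benjamini-Hochberg over all genes, called at 0.05) and tested on simulated data. Genes named with values are Sirt3, Ndufa9 and up to 6 called members per direction and comparison (otherwise the 3 with the smallest p). The highest and lowest members in level and those with disagreeing probe sets are named too. Other lists give up to 2 called genes. Outside this rule, Ndufv1, Ndufv2, Ndufa8 and Ndufv3 were picked with their values known. Members, lists and this rule were chosen with earlier results of these data known.

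Same-numbered arrays of different groups correlated between -0.271 and 0.407 in their deviations, and 5 of 18 pairs lay above 0.1. The highest values were pairs of replicate 3 (0.407, 0.306 and 0.288). Pairs with different numbers were not compared, so whether numbers pair samples was not settled. The main fit used no pairing. Alternatives covered moderation, weights, block, samples fitted, scaling, filters, probe sets, threshold, omitted arrays and a variance between runs.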

Additional observations from a re-analysis of the deposited data

How the results depend on the processing

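Of 151 recomputed counts of called members, 112 stayed within 1.5 times the reported count. The genotype and interaction counts were 0 in the reported fit and in every alternative, so all of them are among the 112. This share therefore does not measure how firm the diet counts were, which are given below. A pair of arrays was also left out together: replicate 1 of the standard-diet knockout and replicate 3 of the high-fat wild type. Their mean acute-phase levels were 11.77 and 9.22, and high-fat knockout replicate 3, which was kept, had 8.99. Of 145 recomputed medians, 142 moved by less than the spread between arrays, and 5 changed sign. Genotype on the standard diet did so without knockout standard-diet replicate 1 and without the pair (0.0044 each). Genotype on the high-fat diet did so without wild-type high-fat replicate 2 (-0.0033) or knockout high-fat replicate 3 (-0.0339). The interaction did so without knockout standard-diet replicate 1 (-0.0009). The mean diet count of 6 members became 12 with array weights (11 of them lower), 10 with quantile normalization, 12 with median centring and 10 with cyclic loess. The shares of all genes called were 26.4%, 19.8%, 18% and 21% in that order, against 18.0% in the reported fit. The mean diet count became 11 without both arrays of the pair (14.9% of all genes) and 0 with the variance between runs (0.0451% of all genes). It was 2 at adjusted p under 0.01. Leaving out 1 array gave 3 to 8, with 13.3% to 17.6% of all genes called. The wild-type diet count of 1 became 2 with robust moderation, 10 with array weights (9 lower) and 3 with median centring. It became 2 with cyclic loess and 3 without both arrays. The shares of all genes called were 6.11%, 18.2%, 5.41%, 6.65% and 4.68% in that order, against 5.99% in the reported fit. The wild-type count was 0 in a fit of only both groups (6.42% of all genes) and with bright genes only (3.47% of those genes). It was also 0 with the variance between runs (0.0351% of all genes) and at 0.01. Leaving out 1 array gave 0 to 3, with 1.95% to 6.63% of all genes called. The knockout diet count of 0 became 2 with array weights, 1 with quantile normalization, 2 with cyclic loess and 1 without both arrays. The shares of all genes called were 10.1%, 6.94%, 7.48% and 3.13% in that order, against 5.11% in the reported fit. Leaving out 1 array gave 0 to 2, with 1.81% to 6.45% of all genes called. Genotype and interaction counts stayed at 0. Median centring moved the median difference of the members to -0.12 for genotype on the standard diet, -0.26 for diet in the wild type and 0.15 for the interaction. Leaving out 1 array, medians ranged from -0.0954 to 0.0044 (genotype, standard diet), -0.0339 to 0.0698 (genotype, high-fat), -0.22 to -0.15 (diet, wild type), -0.1574 to -0.0588 (diet, knockout), -0.16 to -0.10 (mean diet) and -0.0009 to 0.13 (interaction). The Ndufa9 genotype difference on the high-fat diet reversed to -0.0478 without wild-type high-fat replicate 3, -0.0120 without knockout replicate 2, -0.0299 without knockout replicate 3 (0.0793 without knockout replicate 1, the highest) and -0.0478 without both arrays. The cause of these moves was not tested. With the replicate block the mean diet count was 6 and the wild-type count 1, another member (Ndufa2) being called in place of Ndufb10. The 3 arrays a group and the unknown shift between runs limit every diet value.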

Other observations

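Members with more than 1 single-gene probe set, 5 in all, allowed a second reading. In the mean diet difference the second set of Ndufa11, a proximal-arm subunit at the contact with complex III, gave -0.30 (limma adjusted p = 0.00772), while the kept set gave -0.14 (adjusted p = 0.192). The second set of Ndufb11, an X-linked distal-arm subunit, gave -0.23 (limma adjusted p = 0.0321), and the kept set -0.16 (adjusted p = 0.0762). Ndufab1 gave -0.13 and -0.18 without a call, and Ndufs3, a core subunit, gave -0.02 and -0.04. In this comparison the sets of a gene shared their direction and differed in their calls for Ndufa11, Ndufb11 and Ndufc1.

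Probe sets shared by several genes were left out of the comparisons. The first of 2 sets of Ndufb4 and Ndufb4b read 9.69, 9.50 and 9.65 on wild-type and 9.32, 9.29 and 9.58 on knockout standard-diet arrays, then 9.44, 9.44 and 9.48 on wild-type and 9.24, 9.48 and 9.56 on knockout high-fat arrays. Wild-type arrays of both diets did not overlap there, and knockout arrays did. In the other set they overlapped in both genotypes, with group means of 9.73 and 9.53 (wild type and knockout) on the standard diet and 9.64 and 9.61 on the high-fat diet. Averaged over genotypes the diets differed by -0.07 and -0.01 in these sets. The set shared by Ndufs5 and Ndufs5-ps read between 8.02 and 8.58 over the 12 arrays, with group means of 8.26 and 8.23 on the standard diet and 8.34 and 8.43 on the high-fat diet. It was thus higher by 0.13 on the high-fat diet, while the single-gene set of Ndufs5 had a difference of -0.15. None of these sets was tested.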
